A study of Mus musculus with 32 samples.

Results

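Complement and coagulation factors are plasma proteins that are made for the most part by hepatocytes, and their mRNA was followed here in livers of male C57/BL6 mice that were 8 weeks old at the start. The 43 genes described were taken from a list of factors, receptors and inhibitors of both cascades and were found by gene name on the arrays, old symbols allowed. All 43 were among the 21290 genes tested. Mice were fed chow (C) or a methionine and choline deficient diet (MCD) for 3 weeks and were given vehicle or Fc-GLP-1, a long-acting agonist of the GLP-1 receptor, in the last 2 weeks (the C+Fc-GLP-1 group on chow, the M+Fc-GLP-1 group on the MCD diet). Livers were collected before a 70% partial hepatectomy (PH) or 2 weeks after it, with diet and treatment continued, which gave 8 groups of 4 arrays (32 in all). Some labels name the drug differently, as an agonist of both GLP1R and GCGR, so its identity rests on the study's description. Among them, the labels of the C+Fc-GLP-1 arrays after PH name a dual agonist for the 2 weeks after it. Those of the M+Fc-GLP-1 arrays after PH state that diet and treatment were continued. The MCD diet is a model of steatohepatitis without obesity, whole liver RNA was used, and the livers collected 2 weeks after PH came from the mice that had survived it. The tissue before PH is described as that removed at the operation, so arrays before and after PH may come from the same mice.

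The complement system is a set of zymogens, carriers and receptors. The classical pathway starts with C1q, whose A, B and C chains are made by macrophages, the lectin pathway with mannose-binding lectins and the MASP proteases, and both lead through C4 and C2 to C3. The terminal proteins C5, C6, C7, C8 and C9 then assemble into the membrane attack complex. Coagulation runs through the proteases of the contact, tissue factor and common pathways to fibrin, with inhibitors such as protein S and antithrombin, and plasmin dissolves the clot. In the liver the list was therefore read as 35 hepatocyte-made genes, 6 myeloid-made genes (C1qa, C1qb, C1qc, the receptors C3ar1 and C5ar1, and properdin, Cfp) and 2 genes of other sources (tissue factor, F3, and adipsin, Cfd).

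The promoters of C6, C8a, C8b and C9 of the terminal pathway and of C1qb and C1qc are shown first because these genes carry the results below. They are RefSeq windows (GRCm38.p6) from 250 bases before to 50 bases after the start, written 5′ to 3′ on the gene's strand. Capitals mark matches, on either strand, to the letters GTTAAT (part of an HNF1 site), TTNNGNAA (C/EBP family) or TTCNNNGAA (STAT family).
C6 (chr15:4726960-4727259, plus strand): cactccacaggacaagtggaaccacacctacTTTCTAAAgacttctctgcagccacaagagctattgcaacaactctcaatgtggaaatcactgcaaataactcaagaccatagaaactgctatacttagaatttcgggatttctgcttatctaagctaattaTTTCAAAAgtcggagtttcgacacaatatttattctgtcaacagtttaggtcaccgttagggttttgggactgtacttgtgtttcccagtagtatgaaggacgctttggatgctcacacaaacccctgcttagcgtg
C8a (chr4:104876349-104876648, minus strand): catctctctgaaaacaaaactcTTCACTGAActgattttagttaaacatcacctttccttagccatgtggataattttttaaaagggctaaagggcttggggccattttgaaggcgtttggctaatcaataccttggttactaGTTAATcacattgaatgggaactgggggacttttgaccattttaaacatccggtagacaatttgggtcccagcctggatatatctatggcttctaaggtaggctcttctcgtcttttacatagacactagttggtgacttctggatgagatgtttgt
C8b (chr4:104766067-104766366, plus strand): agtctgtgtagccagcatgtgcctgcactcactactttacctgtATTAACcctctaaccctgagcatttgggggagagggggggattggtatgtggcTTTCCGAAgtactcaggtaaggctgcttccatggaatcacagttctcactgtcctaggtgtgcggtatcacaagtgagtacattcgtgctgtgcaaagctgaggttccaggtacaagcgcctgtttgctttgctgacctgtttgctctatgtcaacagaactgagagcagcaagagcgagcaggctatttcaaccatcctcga
C9 (chr15:6445096-6445395, plus strand): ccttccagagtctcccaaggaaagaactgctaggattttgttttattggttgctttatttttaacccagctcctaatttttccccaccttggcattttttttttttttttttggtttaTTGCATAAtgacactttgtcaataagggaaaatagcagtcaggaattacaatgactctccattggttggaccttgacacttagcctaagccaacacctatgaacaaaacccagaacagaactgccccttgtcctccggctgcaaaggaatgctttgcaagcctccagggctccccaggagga
C1qb (chr4:136886151-136886450, minus strand): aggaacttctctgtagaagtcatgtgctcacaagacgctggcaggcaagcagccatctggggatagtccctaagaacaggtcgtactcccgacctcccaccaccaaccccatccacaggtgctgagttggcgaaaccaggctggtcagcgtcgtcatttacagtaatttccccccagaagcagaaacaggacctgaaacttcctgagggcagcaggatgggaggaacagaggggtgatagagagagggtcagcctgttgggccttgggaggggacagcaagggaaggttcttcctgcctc
C1qc (chr4:136892865-136893164, minus strand): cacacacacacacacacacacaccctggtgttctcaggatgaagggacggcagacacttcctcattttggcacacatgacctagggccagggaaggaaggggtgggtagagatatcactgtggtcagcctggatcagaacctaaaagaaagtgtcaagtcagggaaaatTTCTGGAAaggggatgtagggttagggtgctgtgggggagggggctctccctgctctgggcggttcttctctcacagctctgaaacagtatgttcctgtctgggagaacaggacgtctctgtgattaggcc
In these windows C8a and C8b held GTTAAT, C6, C8b, C9 and C1qc held TTNNGNAA, C8a held TTCNNNGAA, and C1qb held none of them. C8g, the remaining terminal pathway gene, has 2 windows that are not shown and that held none of these motifs either. Windows were listed for 33 of the 43 genes, and C1qa was not among them. GTTAAT was found in 7 of 27 windows of hepatocyte-made genes (25.9%), those of C4bp, C8a, C8b, F13b, F2, Fga and Fgb, and in 7.1% of all 32851 windows. TTCNNNGAA was in 6 of the 27 (22.2%, against 8.3% of all windows), and TTNNGNAA, a loose pattern, in 15 (55.6% against 40.7%). CAAAGTC, part of an HNF4 site, was in 0 of 34 windows of these genes and in 4.44% of all windows. These are matches of letters and nothing was measured at the promoters.

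Each array gave a 1-colour intensity for 60-base probes, and a level is the log2 intensity minus the array's 75th percentile, so that a difference of 1 is a doubling. Between 36.3% and 69.2% of probes were well above background on an array, and 40 of the 43 genes were so on every array that measured them. Levels are compared between groups and never between genes. C and MCD arrays before PH shared a slide, the treated groups before PH shared another, and the treated groups after PH another still. The diet comparison lay within a slide for these 3 pairs. C and MCD arrays after PH had a slide each and were read on a second scanner, so in the remaining comparisons slide and group cannot be told apart. All 8 hepatocyte markers were well above background on all 32 arrays. Their mean level lay between 8.62 and 9.10 on C arrays and between 8.15 and 8.43 on MCD arrays before PH, and in these bulk samples fewer cells of a type and less RNA per cell cannot be told apart.

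Part of the hepatocyte-made factors were lower on the MCD diet before PH. Of the 43 genes, 21 differed between MCD and C mice (limma, adjusted p under 0.05), 16 lower and 5 higher, and 26.3% of all genes tested were called in this comparison. The median log2 difference was -0.45 over the 43 genes, -0.56 over the 35 hepatocyte-made genes and -0.12 over all genes. Of the hepatocyte-made genes 15 were lower and C4bp alone was higher. The mean level of the 8 hepatocyte markers was lower as well (8.85 on C and 8.26 on MCD arrays). Its part in these differences was not tested. Centring each array on its median in place of the 75th percentile moved the median of all genes from -0.12 to 0.24 and left 16 genes called, 10 lower and 6 higher. Normexp correction with quantile normalization and the authors' normalized values each also called 16 genes, 10 lower and 6 higher. Under Fc-GLP-1 the same diet comparison before PH called 9 genes, all lower and all hepatocyte-made (10.4% of all genes were called). After PH, MCD and C mice differed in 7 genes, all lower (12.2% of all genes), and the diet groups under Fc-GLP-1 in 11, of which 10 were lower (12.8% of all genes). C6, C8b, C9 and Pros1 were lower in all 4 diet comparisons, and C8a, Masp2 and Serping1 joined them in the 3 that lay within a slide, where several calls of Serping1, C8b and Pros1 rested on single arrays or settings, as given below.

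**Figure D1:**
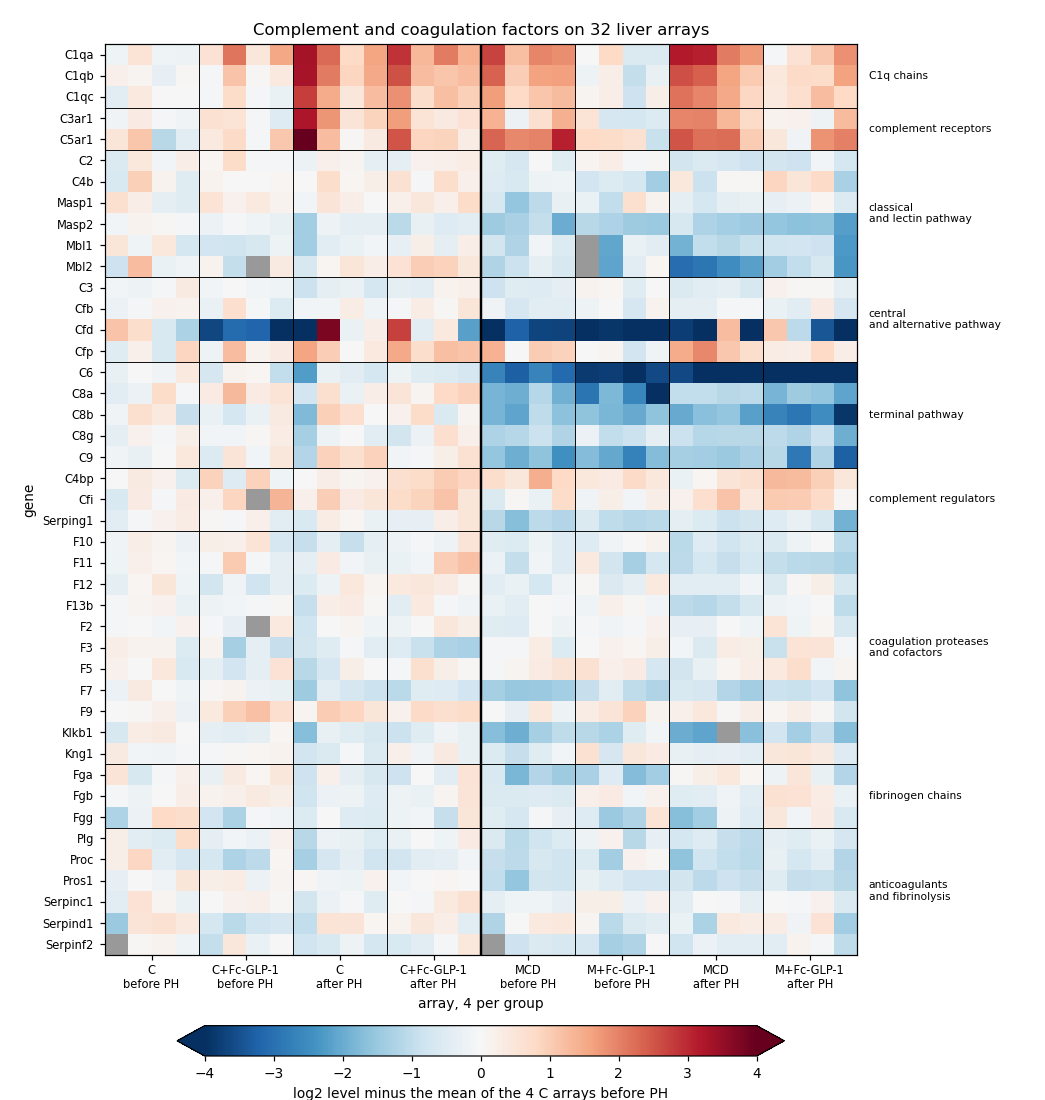
Heat map of the 43 genes (rows, ordered by role) on the 32 arrays (columns, by group), as log2 level minus the mean of the 4 C arrays before PH, with colours limited to 4 in either direction and flagged spots in grey. Rows such as C6, C8a, C8b, C9, Masp2, Pros1, Serping1 and F7 are below the C mean on all 16 MCD diet arrays. The C1q rows are above that mean on the MCD arrays before PH.

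In the terminal pathway all 5 genes were lower in MCD than in C mice before PH, and C6, C8b and C9 were lower in every diet comparison. C6, which opens the membrane attack complex after C5b, had levels of 5.73, 6.04, 5.86 and 6.41 on the C arrays and 3.34, 2.76, 3.34 and 2.89 on the MCD arrays before PH. In the treated mice C6 was at 5.35, 6.15, 6.09 and 5.02 on chow and at 2.18, 2.24, 1.62 and 2.40 on the MCD diet. The groups were far apart on both slides. The log2 difference was -2.93 (SE 0.33, adjusted p = 4.31e-07) without the drug, a 7.61-fold lower signal, and -3.54 (SE 0.33, adjusted p = 2.21e-08) with it, 11.7-fold. After PH C6 read 3.79, 5.74, 5.58 and 5.31 in C mice, 2.39, 1.83, 1.05 and 1.64 in MCD mice, 5.81, 5.53, 5.46 and 5.35 in C+Fc-GLP-1 mice and 1.70, 1.47, 1.74 and 1.71 in M+Fc-GLP-1 mice. Replicate 1 of the C group was the lowest chow array and still above every MCD diet array. The differences were -3.38 (SE 0.33, adjusted p = 6.18e-08) and, under Fc-GLP-1, -3.88 (SE 0.33, adjusted p = 5.63e-09).

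C8a, C8b and C8g encode the 3 chains of C8, which inserts into the membrane. C8a was at 5.57, 5.73, 6.71 and 5.90 in C mice and at 4.11, 4.02, 4.83 and 4.06 in MCD mice before PH, a difference of -1.72 (SE 0.35, adjusted p = 0.000699). In treated mice before PH C8a was at 6.31, 7.26, 6.30 and 6.52 on chow and at 3.06, 4.17, 3.37 and 1.96 on the MCD diet, and this gap was wider, at -3.46 (SE 0.35, adjusted p = 9.02e-08). The difference between these 2 diet effects was itself past the threshold, at -1.74 (SE 0.50, adjusted p = 0.0368), but it was lost in 9 of 16 fits with an array left out (-1.34, adjusted p = 0.0796, when M+Fc-GLP-1 replicate 4 was) and in 2 of 7 other settings, and a second C8a probe gave -0.72. After PH C8a was at 5.20, 6.63, 5.69 and 6.25 in C mice and at 4.98, 4.98, 4.86 and 4.94 in MCD mice, which did not overlap but did not pass the test (-1.0, SE 0.35, adjusted p = 0.0594). Treated mice after PH had C8a levels of 6.49, 6.10, 6.76 and 6.89 on chow and 4.10, 4.54, 4.43 and 3.88 on the MCD diet (-2.32, SE 0.35, adjusted p = 3.70e-05). Over all times and treatments every one of the 16 MCD diet arrays lay below all 16 chow arrays for C6 (1.05 to 3.34 against 3.79 to 6.41) and for C8a (1.96 to 4.98 against 5.20 to 7.26). That held for 0.207% of all genes tested.

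C8b was at 5.79, 6.58, 6.31 and 5.01 in C mice and at 4.07, 3.81, 4.90 and 4.30 in MCD mice before PH. The difference of -1.65 (SE 0.43, adjusted p = 0.00513) did not pass on the authors' normalized values (-0.99, adjusted p = 0.129). It was at 5.65, 5.23, 5.65 and 6.28 in C+Fc-GLP-1 mice and at 4.30, 4.10, 3.91 and 4.31 in M+Fc-GLP-1 mice (-1.55, SE 0.43, adjusted p = 0.0177), and this call was lost without C+Fc-GLP-1 replicate 4 (-1.35, adjusted p = 0.0616), and also when replicate 3 of M+Fc-GLP-1 was left out. After PH the C8b levels of C mice were 4.16, 6.87, 6.61 and 5.94, those of MCD mice 3.91, 4.25, 4.38 and 3.74 (-1.82, SE 0.43, adjusted p = 0.00484). Here the groups overlapped through C replicate 1. In treated mice after PH C8b was at 6.08, 6.66, 5.34 and 6.03 on chow and at 3.25, 3.04, 3.45 and 2.04 on the MCD diet, with no overlap and a difference of -3.08 (SE 0.43, adjusted p = 1.00e-05). C8g was lower in MCD than in C mice before PH (7.52 to 7.88 against 8.36 to 8.99; -1.11, SE 0.28, adjusted p = 0.00455) and in M+Fc-GLP-1 than in C+Fc-GLP-1 mice after PH (6.81 to 7.88 against 8.0 to 9.42; -1.24, SE 0.28, adjusted p = 0.00340). In the other 2 diet comparisons C8g differed by -0.64 (adjusted p = 0.147) and -0.56 (adjusted p = 0.216).

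C9, which forms the ring of the pore, had levels of 3.33, 3.16, 3.49 and 3.89 in C mice and 1.91, 1.51, 1.87 and 1.03 in MCD mice before PH. The groups did not overlap, and the difference was -1.89 (SE 0.42, adjusted p = 0.00156). With Fc-GLP-1 it was at 2.92, 3.99, 3.37 and 3.93 on chow and at 1.75, 1.42, 0.77 and 1.74 on the MCD diet (-2.13, SE 0.42, adjusted p = 0.00109). After PH C9 was at 2.29, 4.38, 4.10 and 4.38 in C mice and at 2.13, 2.07, 1.97 and 2.16 in MCD mice (-1.70, SE 0.42, adjusted p = 0.00762). C replicate 1 lay close to the MCD arrays and apart from the other C arrays. Treated mice after PH had C9 levels of 3.34, 3.43, 3.71 and 4.07 on chow and 2.36, 0.61, 2.27 and 0.20 on the MCD diet (-2.28, SE 0.42, adjusted p = 0.000402). Hc, which encodes the C5 that precedes these proteins and was not in the list of 43, showed differences of -0.12 (adjusted p = 0.730) and -0.07 in the diet comparisons before PH and was lower only in M+Fc-GLP-1 against C+Fc-GLP-1 mice after PH (-0.99, SE 0.23, adjusted p = 0.00364). The probes used lie, in the NCBI37 coordinates of the files, at chr15:4748363-4748422 (C6), chr4:104488479-104488538 (C8a), chr4:104477094-104477153 (C8b) and chr15:6433127-6433186 (C9).

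**Figure D2:**
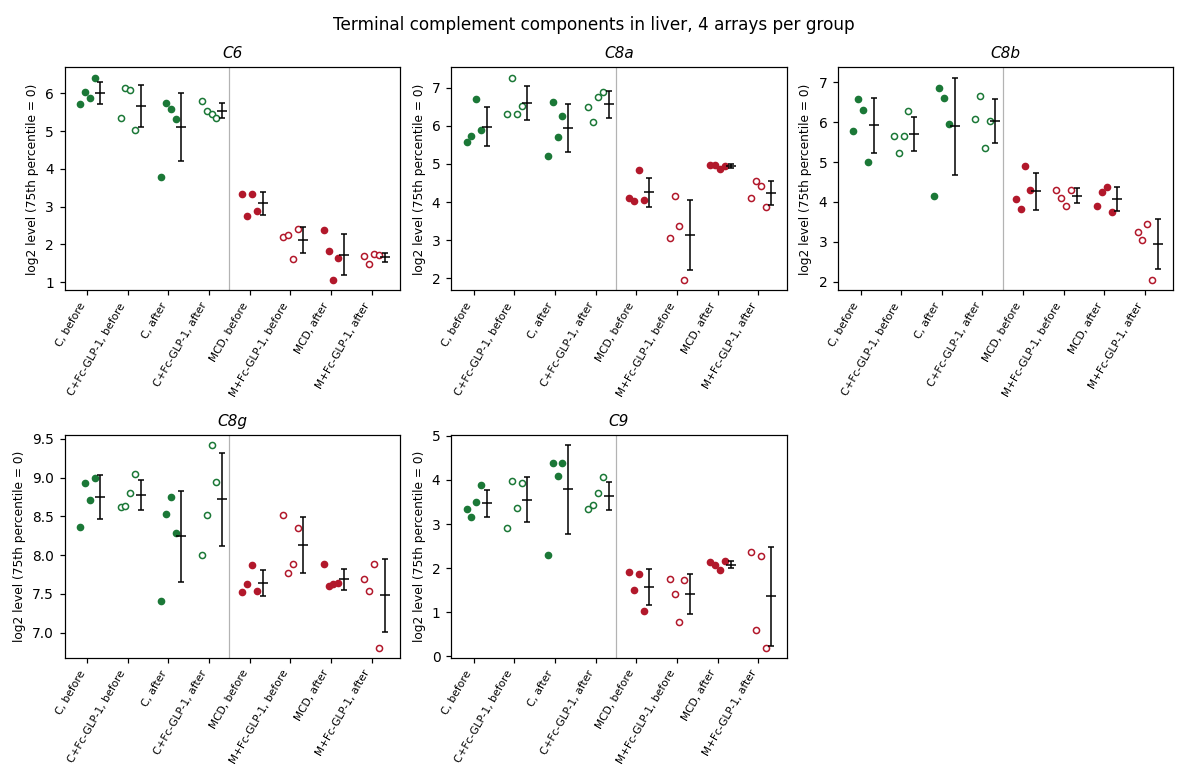
Log2 level of C6, C8a, C8b, C8g and C9 on every array (dots) by group, with the mean and SD of 4 arrays as a black dash and bars, chow in green, MCD diet in red and Fc-GLP-1 as open dots. For C6 and C8a all dots of the MCD diet lie below all dots of chow, and for C8b and C9 the lowest chow dots are those of C replicate 1 after PH.

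In the lectin pathway Masp2, the protease that cleaves C4 and C2, was at 6.47, 6.72, 6.64 and 6.49 in C mice and at 5.16, 5.27, 5.63 and 4.58 in MCD mice before PH. It was also lower under Fc-GLP-1 before PH (5.10 to 5.45 against 6.27 to 6.54) and after PH (4.37 to 5.04 against 5.50 to 6.29). None of these groups overlapped. The differences were -1.42 (SE 0.25, adjusted p = 0.000145), -1.13 (SE 0.25, adjusted p = 0.00333) and -1.17 (SE 0.25, adjusted p = 0.00182), and all Masp2 probes gave negative values (-1.70 to -0.17, -1.24 to -0.15 and -1.18 to -0.82). Masp1, a related protease, was lower in MCD than in C mice before PH with overlapping levels (-0.88, SE 0.29, adjusted p = 0.0257), its call was lost in 9 of 15 alternatives, and its probes did not share a sign (-1.07 to 0.71).

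Mbl2, which encodes a mannose-binding lectin, passed after PH. It was at 7.06, 7.78, 8.19 and 7.97 in C mice and at 4.64, 4.79, 5.23 and 5.52 in MCD mice after PH, a 6.53-fold difference (-2.71, SE 0.44, adjusted p = 0.000123). Treated mice had 8.27, 8.67, 8.62 and 8.13 on chow and 6.29, 6.72, 7.07 and 5.35 on the MCD diet (-2.07, SE 0.44, adjusted p = 0.00182). Of the 5 lowest Mbl2 levels in the series 4 were those of the MCD arrays after PH. Before PH it was at 6.50 to 7.34 in MCD mice, so it fell by 1.88 on the log2 scale from before to after PH in that group (SE 0.44, adjusted p = 0.00647), in which both times lay on different slides. Its diet difference before PH was -0.77 (adjusted p = 0.197). A flagged spot left Mbl2 with 3 arrays in each treated group before PH. Mbl1, C2 and C4b passed in no comparison.

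C3, the protein on which all 3 pathways meet, was lower in MCD than in C mice before PH (9.28 to 9.72 against 9.91 to 10.5; -0.55, SE 0.20, adjusted p = 0.0387), but the sign turned with normexp correction and quantile normalization (0.19) and on the authors' values (0.20), and the call was lost in 11 of 15 alternatives. Cfb, its partner in the alternative pathway, passed in no comparison. Among the regulators Serping1, the C1 inhibitor, was at 8.0, 8.35, 8.59 and 8.71 in C mice and at 7.32, 6.72, 7.37 and 7.23 in MCD mice before PH, without overlap (-1.25, SE 0.28, adjusted p = 0.00170). Under Fc-GLP-1 the diet difference in Serping1 was -0.89 before PH (SE 0.28, adjusted p = 0.0412) and -0.88 after PH, where the groups overlapped (SE 0.28, adjusted p = 0.0372). The first of these calls was lost in 10 of 15 alternatives (-0.79, adjusted p = 0.113, without C+Fc-GLP-1 replicate 3) and the second in 6 of 15 (-0.52, adjusted p = 0.202, with M+Fc-GLP-1 replicate 4 left out). C4bp, which binds C4b and was the only hepatocyte-made gene to rise with the diet, was at 7.31, 7.64, 7.45 and 6.72 in C mice and at 7.97, 7.73, 8.74 and 8.08 in MCD mice before PH (0.85, SE 0.29, adjusted p = 0.0305), and the call was lost in 4 of 8 fits with an array left out (0.65, adjusted p = 0.126, without MCD replicate 3). In the other 3 diet comparisons C4bp differed by 0.11 to 0.20 and did not pass.

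Cfd, the protease adipsin that cleaves factor B, is made mainly by adipocytes. Before PH its levels were 0.53, 0.09, -1.21 and -1.88 in C mice and -7.35, -3.84, -4.30 and -4.33 in MCD mice, of which 3 were well above background (-4.34, SE 1.43, adjusted p = 0.0256). The gap rested in part on MCD replicate 1, the lowest array, and without it was -3.54 (adjusted p = 0.0951). In C+Fc-GLP-1 mice Cfd was not well above background on any of the 4 arrays. The difference from C mice did not pass (-3.65, adjusted p = 0.164), and the groups lay on different slides. Between the means the C signal was at least 10.69-fold higher, a bound that takes no account of the spread among arrays. This bound sets the C mean against the higher, per array, of the faintest signal well above background and the probe's own. After PH Cfd ranged from -6.45 to 3.14 in C mice, with an SD of 3.97 where C8b, the most variable hepatocyte-made gene in this group, had 1.22. Adipoq, an adipocyte hormone, was well above background on 9 of 32 arrays, Plin1 on 5, Lep on 1 and Retn on 9, and all 4 adipocyte markers were too dim to be tested. The Adipoq arrays were C replicates 1 and 2 before PH, C replicate 2, C+Fc-GLP-1 replicates 1, 2 and 3, MCD replicate 3 and M+Fc-GLP-1 replicates 1 and 2 after PH, which were the highest Cfd arrays of their groups. The part of adipose RNA in the Cfd differences was not tested.

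**Figure D3:**
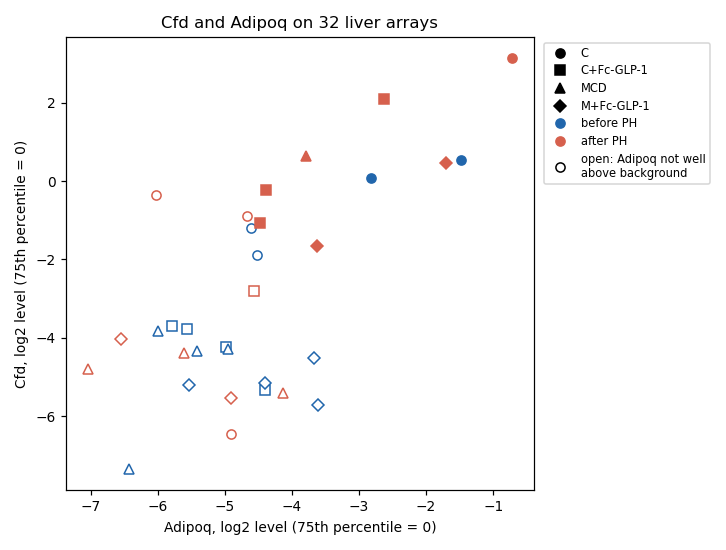
Log2 level of Cfd against that of Adipoq on each of the 32 arrays, coloured by time (before or after PH). Symbol shapes give diet and treatment, and symbols are open where Adipoq was not well above background. The 9 filled symbols lie at the upper end of Cfd in their groups.

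Of the 11 coagulation proteases and cofactors 2 were lower in MCD than in C mice before PH, as were 2 of the 3 fibrinogen chains, where 26.3% of all genes were called in either direction. F7, the partner of tissue factor, was at 4.86, 5.43, 5.11 and 4.92 in C mice and at 3.76, 3.57, 3.61 and 3.72 in MCD mice, a 2.67-fold difference (-1.42, SE 0.24, adjusted p = 8.87e-05). Under Fc-GLP-1 F7 was at 4.78 to 5.23 on chow and 3.86 to 4.66 on the MCD diet (-0.82, SE 0.24, adjusted p = 0.0255), a call lost in 10 of 15 alternatives (-0.71, adjusted p = 0.0954, with M+Fc-GLP-1 replicate 4 left out), and a second F7 probe gave -0.38. After PH the 4 groups lay together between 3.46 and 4.66, with diet differences of -0.12 (adjusted p = 0.803) and -0.31 (adjusted p = 0.456). Klkb1, plasma prekallikrein of the contact system, was at 6.17, 7.10, 7.18 and 6.82 in C mice and at 5.13, 4.87, 5.51 and 5.81 in MCD mice before PH (-1.49, SE 0.31, adjusted p = 0.000799). After PH its difference was -1.15 (SE 0.33, adjusted p = 0.0216), over 3 MCD arrays because of a flagged spot, a call lost in 8 of 15 alternatives (-1.05, adjusted p = 0.0903, without MCD replicate 2). Under Fc-GLP-1 the Klkb1 difference was -0.49 before PH (adjusted p = 0.343) and -0.74 after PH (adjusted p = 0.115).

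F11, which activates factor IX, passed only in treated mice after PH. It was at 4.40, 4.55, 5.65 and 5.82 on chow and at 3.72, 3.57, 3.55 and 3.40 on the MCD diet (-1.55, SE 0.33, adjusted p = 0.00168). The 2 highest chow arrays were well above the other 2. F13b, the carrier subunit of the fibrin-crosslinking factor XIII, was lower in MCD than in C mice after PH (3.33 to 3.83 against 3.57 to 4.80; -0.89, SE 0.24, adjusted p = 0.0146), with an overlap through C replicate 1, and was lower after than before PH in MCD mice (-0.77, SE 0.24, adjusted p = 0.0422). These F13b calls were lost in 3 and 6 of 8 fits with an array left out, the first to an adjusted p of 0.0670 without C replicate 3 and the second to 0.120 without MCD replicate 3 before PH. F3, the tissue factor gene, was the only one of the 43 that was higher on the MCD diet after PH, in treated mice (1.00, SE 0.31, adjusted p = 0.0273), and its levels overlapped (-0.10 to 1.35 against -0.49 to 0.29). The F3 call was lost in 10 of 15 alternatives (0.83, adjusted p = 0.111, with M+Fc-GLP-1 replicate 2 left out), and a second F3 probe gave 0.54. F2, F5, F9, F10 and F12 and the cofactor Kng1 passed in no comparison.

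Fibrinogen has an alpha, a beta and a gamma chain. Fga was at 7.82, 6.68, 7.22 and 7.51 in C mice and at 6.70, 5.49, 6.13 and 5.87 in MCD mice before PH, with an overlap between the lowest C and the highest MCD array (-1.26, SE 0.34, adjusted p = 0.00712). In treated mice before PH it was at 7.02, 7.68, 7.38 and 7.75 on chow and at 6.0, 6.79, 5.56 and 5.90 on the MCD diet, without overlap (-1.39, SE 0.34, adjusted p = 0.00741). In MCD mice Fga rose by 1.46 from before to after PH (SE 0.34, adjusted p = 0.00623), to 7.37, 7.55, 7.72 and 7.40. This return depended on the probe. A second Fga probe, at chr3:82837260-82837319 in NCBI37 where the first is at chr3:82835678-82835737, gave similar diet differences before PH (-1.84 and -1.94) but -1.31 between MCD and C mice after PH, where the first gave 0.60, and 0.44 between the times in MCD mice. Fgb was lower in MCD than in C mice before PH (9.22 to 9.30 against 9.62 to 10.1; -0.56, SE 0.20, adjusted p = 0.0378) and lost its call in 5 other settings and in 7 of 8 fits with an array left out. It was higher with than without Fc-GLP-1 on the MCD diet before PH (0.71, SE 0.20, adjusted p = 0.0309) and after PH (0.69, SE 0.20, adjusted p = 0.0355), but both signs turned with normexp (-0.38 and -0.17) and on the authors' values (-0.37 and -0.18), and each of these calls was lost in 11 of 15 alternatives. Fgg passed in no comparison.

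Among the anticoagulant and fibrinolytic genes Pros1, encoding protein S, was lower in each diet comparison. It was at 2.80, 3.12, 2.99 and 3.62 in C mice and at 2.15, 1.59, 2.40 and 2.33 in MCD mice before PH (-1.02, SE 0.20, adjusted p = 0.000565). With Fc-GLP-1 it was at 2.91 to 3.45 on chow and 2.36 to 2.84 on the MCD diet (-0.70, SE 0.20, adjusted p = 0.0246), a call lost in 8 of 15 alternatives (-0.63, adjusted p = 0.0810, when replicate 2 of C+Fc-GLP-1 was left out). After PH Pros1 was at 2.93 to 3.31 in C mice, 2.09 to 2.41 in MCD mice, 3.02 to 3.22 in C+Fc-GLP-1 mice and 2.03 to 2.65 in M+Fc-GLP-1 mice, with a difference of -0.84 on either side of the treatment (adjusted p = 0.00610 and 0.00552). The groups overlapped in none of these comparisons. Plg, the precursor of plasmin, was lower in MCD than in C mice before PH (-0.75, SE 0.27, adjusted p = 0.0377), but the sign turned with normexp (0.21) and on the authors' values (0.26), and the call was lost in 9 of 15 alternatives. Proc, Serpinc1, Serpind1 and Serpinf2, encoding protein C, antithrombin, heparin cofactor II and the plasmin inhibitor, passed in no comparison.

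**Figure D4:**
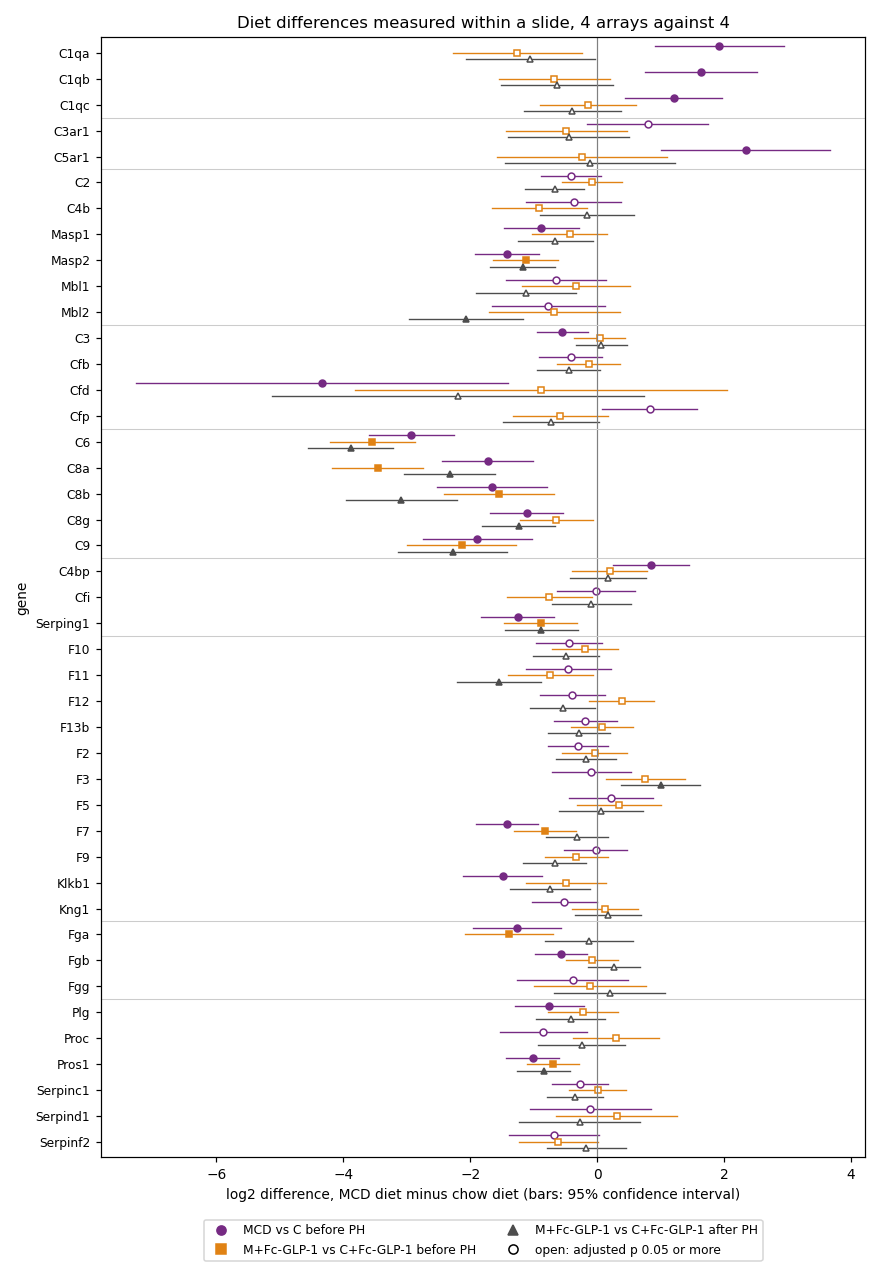
Log2 difference between MCD diet and chow for each of the 43 genes, with 95% confidence interval, in the 3 comparisons in which both groups shared a slide; filled dots have an adjusted p under 0.05. C6, C8a, C8b, C9, Masp2, Pros1 and Serping1 are filled and negative in all 3 comparisons, and the C1q chains are filled and positive only in MCD against C before PH.

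The macrophage-made C1q chains rose with the diet before PH. C1qa was at 1.31, 2.05, 1.34 and 1.29 in C mice and at 4.21, 2.69, 3.44 and 3.35 in MCD mice, a 3.80-fold rise (1.92, SE 0.50, adjusted p = 0.00539). C1qb was at 1.47, 1.38, 0.94 and 1.34 in C mice and at 3.64, 2.25, 2.88 and 2.92 in MCD mice (1.64, SE 0.43, adjusted p = 0.00581), and C1qc was at 2.23, 3.04, 2.65 and 2.64 in C mice and at 4.30, 3.43, 3.75 and 3.90 in MCD mice (1.21, SE 0.37, adjusted p = 0.0170). MCD arrays lay above C arrays for each chain, but the C1qc call was lost without MCD replicate 1, the highest array (1.06, adjusted p = 0.0591), and without C replicate 1. The C1qb call did not pass on the authors' values (1.14, adjusted p = 0.0779). C5ar1, the receptor of the anaphylatoxin C5a, was at -2.68, -3.08, -3.03 and -1.89 in MCD mice and was well above background on 1 of 4 C arrays (2.34, SE 0.65, adjusted p = 0.00921), so the size of this difference rests on C readings most of which were not well above background. C3ar1 (0.80, adjusted p = 0.208) and Cfp (0.83, adjusted p = 0.0927) did not pass there. Of the 8 macrophage markers that could be tested, of 9 listed, 6 rose in the same comparison (Adgre1, Cd5l, Cd68, Clec4f, Csf1r and Vsig4), and their mean level was 1.56 to 2.49 on C arrays and 2.68 to 4.29 on MCD arrays. The part of macrophage number in the C1q differences was not tested.

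In treated mice before PH no C1q chain was higher on the MCD diet. In M+Fc-GLP-1 mice before PH C1qa was at 1.5, 2.30, 0.93 and 0.92, C1qb at 1.06, 1.54, 0.33 and 0.97 and C1qc at 2.74, 2.90, 1.80 and 2.86. Each was lower than in MCD mice, without overlap, with differences of -2.01 (SE 0.50, adjusted p = 0.0152), -1.95 (SE 0.43, adjusted p = 0.00777) and -1.27 (SE 0.37, adjusted p = 0.0362), and the groups lay on different slides. C1qa did not pass without MCD replicate 1 (-1.75, adjusted p = 0.0691), and C1qc was lost in 5 of 8 fits with an array left out. In C+Fc-GLP-1 mice C1qa was at 2.06, 3.63, 1.95 and 3.04, C1qb at 1.20, 2.41, 1.32 and 1.66 and C1qc at 2.55, 3.38, 2.57 and 2.38. The diet effect differed with and without Fc-GLP-1, a test in which additive slide effects cancel, by -3.18 for C1qa (SE 0.71, adjusted p = 0.0109) and -2.31 for C1qb (SE 0.61, adjusted p = 0.0253). For C1qc it was -1.35 (adjusted p = 0.116). C1qa passed in each left-out fit (-2.92, adjusted p = 0.0302, without MCD replicate 1), and C1qb did not without that array (-2.07, adjusted p = 0.0613), without C+Fc-GLP-1 replicate 2, nor when replicate 3 of M+Fc-GLP-1 was left out. With these and C8a, 3 genes were called in this test, of 43, against 6.13% of all genes. Median centring called 8 and shifted the median of all genes from 0.15 to -0.47. Of the 8 macrophage markers 4 were lower in this test (6.13% of all genes called). In M+Fc-GLP-1 against MCD mice 4 of 8 were lower (Cd5l, Clec4f, Csf1r and Vsig4), where 7.21% of all genes were called. Their mean level was 1.35 to 2.84 on M+Fc-GLP-1 and 2.43 to 3.08 on C+Fc-GLP-1 arrays. A separate list of 6 monocyte and recruited macrophage markers had mean levels of 0.07 to 1.10 on MCD and -1.20 to -0.08 on M+Fc-GLP-1 arrays. On chow its levels were -1.68 to -1.44 on C and -1.09 to -0.69 on C+Fc-GLP-1 arrays.

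After PH each C1q chain had its lowest mean in M+Fc-GLP-1 mice. C1qa was at 4.82, 3.78, 2.28 and 3.06 in C mice, 4.66, 4.60, 3.58 and 3.19 in MCD mice, 4.38, 2.82, 3.57 and 2.88 in C+Fc-GLP-1 mice and 1.43, 2.08, 2.58 and 3.33 in M+Fc-GLP-1 mice. The last group overlapped the MCD group, from which it differed by -1.65 (SE 0.50, adjusted p = 0.0443), a call lost in 9 of 15 alternatives (-1.34, adjusted p = 0.151, with M+Fc-GLP-1 replicate 1 left out). C1qb was at 4.59, 3.35, 2.13 and 2.81 in C mice after PH, 3.87, 3.67, 2.85 and 2.32 in MCD mice, 3.82, 2.51, 2.38 and 2.50 in C+Fc-GLP-1 mice and 1.69, 2.06, 2.03 and 2.90 in M+Fc-GLP-1 mice. C1qc read 5.42, 4.13, 3.11 and 3.87, then 4.81, 4.60, 4.14 and 3.46, then 4.48, 3.34, 3.83 and 3.58, and 3.03, 3.31, 3.88 and 3.44 in the same order of groups. No chain differed between MCD and C mice after PH (median difference 0.12 over the chains). The macrophage markers had means of 3.05 to 5.05 on C, 3.55 to 4.67 on MCD, 3.51 to 4.55 on C+Fc-GLP-1 and 2.84 to 3.52 on M+Fc-GLP-1 arrays, with 0 of 8 called between MCD and C mice and 2 of 8 lower under Fc-GLP-1 on the MCD diet.

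**Figure D5:**
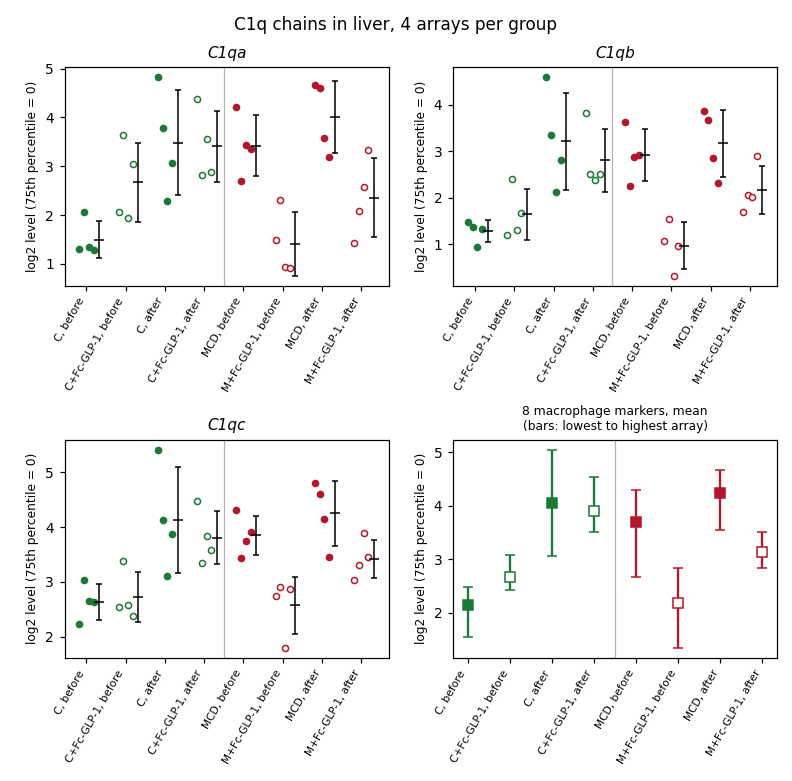
Log2 level of C1qa, C1qb and C1qc on every array (dots, mean and SD of 4 in black) by group, with the mean of 8 macrophage markers (bars from the lowest to the highest array) in the last panel. MCD dots lie above C dots before PH, M+Fc-GLP-1 dots before PH overlap the chow dots, and the C dots after PH spread most.

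In C mice, livers 2 weeks after PH differed from those before it in 5 of the 43 genes (13.8% of all genes). Slide and scanner both changed between these times in C mice, as in MCD mice, so neither can be told apart from time. C1qa (1.99, SE 0.50, adjusted p = 0.00876), C1qb (1.94, SE 0.43, adjusted p = 0.00353), C1qc (1.49, SE 0.37, adjusted p = 0.00844) and C3ar1 (1.61, SE 0.47, adjusted p = 0.0208) were higher and F7 was lower (-0.84, SE 0.24, adjusted p = 0.0184). All 8 macrophage markers were higher as well. C replicate 1 after PH decided 4 of these calls, since without it C1qa was at 1.54 (adjusted p = 0.0566), C1qc at 1.06 (adjusted p = 0.0586), C3ar1 at 1.07 (adjusted p = 0.129) and F7 at -0.65 (adjusted p = 0.0983), and only C1qb passed (1.48, adjusted p = 0.0270). The same array, which was low in C8b, C9 and Masp2, held down the diet comparison after PH, where 11 genes in place of 7 passed without it. C8a (-1.25, adjusted p = 0.0198), C8g (-0.83, adjusted p = 0.0405), Cfd (-4.13, adjusted p = 0.0310) and Masp2 (-0.86, adjusted p = 0.0140) were the additional ones. In MCD mice 4 genes differed between the times (9.33% of all genes), with Fga higher and C6 (-1.36, SE 0.33, adjusted p = 0.00833), F13b and Mbl2 lower. A block of the 4 numbers within each diet and treatment, which treats equal numbers before and after PH as the same mouse and was chosen after the data were seen, called 5 genes in C mice and 3 in MCD mice, F13b being the one lost.

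Under Fc-GLP-1 limma called 0 of the 43 genes between the times in chow mice (0.831% of all genes, 6 at an unadjusted p under 0.05). In mice on the MCD diet it also called 0 (1.71%, 10 unadjusted), and each count was 2 with normexp. The treated groups changed slide but not scanner between the times. Their counts therefore cannot be set against those without the drug as an effect of treatment. The test of whether the diet effect under Fc-GLP-1 changed with time called 0 (0.0939% of all genes; 5 unadjusted). Fc-GLP-1 alone called 0 genes in chow mice before PH (2.08% of all genes; 6 unadjusted), and other settings called at most 2. After PH the count was again 0 (2.05%, 6 unadjusted) in every setting. Of the 35 hepatocyte-made genes 33 were on the positive side, with a median of 0.34 against 0.04 over all genes. This count of signs is not a test, since these genes can move together on an array. Their mean level was 6.228 to 7.075 on C arrays (group mean 6.786) and 6.875 to 7.28 on C+Fc-GLP-1 arrays, so the groups overlapped. The groups shared neither slide nor scanner, so the drug cannot be told apart from either. The mean of the hepatocyte markers lay between 7.91 and 8.67 on these C arrays and between 8.52 and 9.10 on the C+Fc-GLP-1 arrays, and its part in the positive values was not tested. In mice on the MCD diet it called 5 before PH (7.21% of all genes), the C1q chains and C8a lower and Fgb higher, and 2 after PH (6.45%), C1qa lower and Fgb higher. C8a stood at 4.02 to 4.83 in MCD and 1.96 to 4.17 in M+Fc-GLP-1 mice (-1.12, SE 0.35, adjusted p = 0.0495), a call lost in 7 of 8 fits with an array left out (-0.72, adjusted p = 0.196, when it was M+Fc-GLP-1 replicate 4). C5ar1 was not well above background on any M+Fc-GLP-1 array before PH. Its difference from MCD mice did not pass (adjusted p = 0.0534), and the groups lay on different slides. Between the means the MCD signal was at least 2.44-fold higher, a bound that takes no account of the spread among arrays. These comparisons share the MCD mice with the diet comparisons.

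Of 44 further genes of both cascades 39 could be tested. Before PH 16 of them differed between MCD and C mice, 9 lower and 7 higher (26.3% of all genes in either direction). Among the lower were the classical proteases C1ra (-0.86) and C1s2 (-1.05), the regulators Cd59a (-0.78), Clu (-0.86) and Vtn (-0.68), the anticoagulant cofactor Proz (-1.09), Vkorc1 (-0.99), which recycles vitamin K, and the integrin chain Itgam (-1.56). Among the higher were genes of leukocytes and vessels, Itgax (2.90), Itgb2 (1.45), Vsig4 (2.30), F13a1 (2.47), Plaur (2.15) and Thbd (1.62). Under Fc-GLP-1 3 were lower on the MCD diet before PH (10.4% of all genes called) and 7 after PH (12.8%), Hc among the latter. Of 12 acute phase genes, which hepatocytes raise in inflammation, 2 were higher and 0 lower in MCD against C mice before PH. In this comparison 26.3% of all genes were called in either direction.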

How the data were processed

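Liver RNA in 32 samples (8 groups of 4, groups from the labels) was hybridised to 1-colour Agilent mouse arrays. The authors deposited the scanner output, in which each spot has a background-subtracted intensity, and a table of log2 values that they normalized separately for the arrays before and after PH; the latter served as an alternative. Flagged spots were left out, which left 6 of the 43 genes with missing arrays. Log2 intensities were centred on each array's 75th percentile, 29302 probes were kept that stood well above background throughout some group, and the brightest probe stood for its gene. A probe took the RefSeq symbol of its accession where there was one (27656 probes) and otherwise the gene name of the array design. This changed the names of 1711 probes. limma 3.58.1 (R 4.3.3) was fitted over all 8 groups, with Benjamini-Hochberg adjustment over 21290 genes, a threshold of 0.05 and 14 comparisons. The script was checked on simulated data. No sequencing depth applies, and the number of arrays limits the precision. Labels number the arrays alike before and after PH and tie neither time to a mouse.

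Alternatives were normexp with offset 50 and quantile normalization, median centring, the authors' values, keeping dim probes, averaging a gene's probes, fits of the compared groups only, a replicate block, with numbers as a block within each diet and treatment added after the data were seen, and leaving out each array. The genes, roles and lists were chosen with earlier results of these data known. Named were the C1q chains, the genes past the threshold and, where more than 10 passed, the 5 largest changes in each direction with others by role.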

Additional observations from a re-analysis of the deposited data

Results flagged for a closer look

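Among 26 genes past the threshold somewhere, 205 groups of 4 arrays were examined for an array far from the others, and 17 had one, where chance gives about 1 in 20. In the terminal and lectin pathways these were C9 on C replicate 1 after PH (2.29, others 4.10 to 4.38), Masp2 on the same array (5.17, others 6.19 to 6.38) and on M+Fc-GLP-1 replicate 4 after PH (4.37), C6 on M+Fc-GLP-1 replicate 2 after PH (1.47), C8a on MCD replicate 3 before PH (4.83) and C8g on MCD replicate 1 after PH (7.89). Among the C1q chains and receptors they were C1qa on C replicate 2 before PH (2.05), C1qb on C+Fc-GLP-1 replicate 1 after PH (3.82, others 2.38 to 2.51), C1qc on M+Fc-GLP-1 replicate 3 before PH (1.80), C3ar1 on M+Fc-GLP-1 replicate 1 before PH (-2.29) and C5ar1 on M+Fc-GLP-1 replicate 4 before PH (-5.91). Cfd stood apart on MCD replicate 1 before PH (-7.35) and on MCD replicate 3 after PH (0.63, others -5.42 to -4.39), the MCD array after PH on which Adipoq was well above background. In coagulation they were F3 on C replicate 4 before PH (0.27), F7 on M+Fc-GLP-1 replicate 4 after PH (3.46), Fgb on MCD replicate 3 after PH (9.66) and Klkb1 on C+Fc-GLP-1 replicate 4 before PH (6.89).

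The diet effect before PH differed with and without Fc-GLP-1, by the interaction test, for C1qa (-3.18), C1qb (-2.31) and C8a (-1.74). In this test 6.13% of all genes were called. C8a had the wider fall under the drug, but its call was lost in 9 of 16 fits with an array left out, and a second probe gave -0.72. The C1qb call was lost in 3 of 16 such fits, with normexp and on the authors' values.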

How the results depend on the processing

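Of 67 differences past the threshold, 32 passed in every alternative, among them all of C6, C9, Masp2 and Mbl2, and 28 were lost when some array was left out. Counts of called genes moved as follows. Normexp with quantile normalization called 1 in place of 0 for Fc-GLP-1 in chow mice before PH, 8 in place of 5 for Fc-GLP-1 on the MCD diet before PH, 1 in place of 2 for it after PH, and 2 in place of 0 between the times in each treated group. Median centring called 2 in place of 0 for Fc-GLP-1 in chow mice before PH, 8 in place of 3 for the interaction and 1 in place of 2 for Fc-GLP-1 on the MCD diet after PH. The authors' values called 1 and 4 in the first and last of these. Fitting only the compared groups called 1 and 0 there, 4 in place of 7 for MCD against C after PH and 2 in place of 5 between the times in C mice. Without the filter on dim probes Fc-GLP-1 on the MCD diet called 0 after PH, and the mean over probes called 1 between the times in M+Fc-GLP-1 mice. The cause was not tested. C3 and Plg in MCD against C mice before PH reversed to 0.19 and 0.21 with normexp and to 0.20 and 0.26 on the authors' values, and Fgb in M+Fc-GLP-1 against MCD mice to -0.38 and -0.37 before PH and -0.17 and -0.18 after PH.

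Leaving out 1 array gave 14 to 20 genes for MCD against C and 1 to 6 for M+Fc-GLP-1 against MCD before PH (1 without MCD replicate 1), 5 to 9 for M+Fc-GLP-1 against C+Fc-GLP-1 before PH (5 without M+Fc-GLP-1 replicate 3), 1 to 4 for the interaction, 5 to 11 for MCD against C after PH, 0 to 4 for M+Fc-GLP-1 against MCD after PH, 9 to 13 for M+Fc-GLP-1 against C+Fc-GLP-1 after PH, 1 to 7 between the times in C mice, 3 to 4 in MCD mice and 0 to 1 in M+Fc-GLP-1 mice. Arrays with the same number did not deviate together throughout (correlations of -0.19 to 0.52), and whether equal numbers before and after PH mark the same mouse is not given in the labels. The replicate block called 21, 0, 6, 9 and 3 genes before PH, 7, 0, 2 and 13 after PH and 5, 4, 0, 0 and 0 in the time comparisons, and lost 0 calls. A block of numbers within diet and treatment, added after the data were seen, called 5, 3, 0, 0 and 0 in the latter. Signals near background limit Cfd, C5ar1 and C3ar1.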
